A study of Mus musculus with 6 samples.

Results

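The genes described here are 10 markers and growth factor genes of resident macrophages: the receptor gene Csf1r, its ligand genes Csf1 and Il34, the endocytic and scavenger receptor genes Mrc1, Lyve1, Folr2, Cd163 and Timd4, the transglutaminase gene F13a1, and Emr1, now named Adgre1, which encodes the F4/80 antigen. They were found by symbol among the 33924 genes of a comparison of young and aged mouse RPE/choroid, and all 10 were among the 18636 genes tested. RPE/choroid is the pigmented epithelium behind the retina with the vascular layer beneath it, scraped here from the eyecups of C57BL/6J mice with no transgene or treatment, a pair of eyes per sample. The young group held 3 libraries labelled 1 to 2 months, and the aged group held 3 labelled 20 to 24 months in their titles and 22 to 24 months in their time label. The labels name only males, but mice of both sexes and a higher age range for the young group are given in the study's methods. Libraries were stranded and made from ribosomal RNA-depleted total RNA.

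Many resident macrophages settle in tissues early in development, and they depend for survival on the receptor tyrosine kinase Csf1r, which binds 2 unrelated ligands, Csf1 and Il34. In the choroid they lie along vessels and in the stroma. Mrc1 (CD206), Lyve1, Folr2, Cd163 and Timd4 are surface proteins by which such cells are recognised, and F13a1 encodes the A subunit of coagulation factor XIII, which macrophages and platelets contain. None of the 10 is made by macrophages alone in every tissue. Lyve1 is also a hyaluronan receptor of lymphatic endothelium, and Csf1 and Il34 are produced by stromal, epithelial or neural cells.

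Each gene has in the deposited table a single mean across all 6 libraries (normalized counts), a log2 fold change, the standard error (SE) of that change, and an adjusted p from the Wald test of DESeq2. No value per library was analysed here, so neither the spread between mice nor the depth of a library can be shown, and replicate error enters through the SE alone. Young and aged means were worked out from the mean and the fold change with equal group sizes. The table does not state its sign, which was set from the study's account so that a positive value is higher in aged mice, and every direction rests on that choice. A gene is said to differ where its adjusted p was under 0.05. The tissue carried epithelial transcripts, with a mean of 43745 for Rpe65 (log2 change 0.10, SE 0.16), and also rod transcripts from the retina, with Sag at a mean of 13165 (log2 change 0.16, SE 0.39).

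In aged RPE/choroid, 6 of the 10 genes were lower, 2 were higher and 2 did not pass the test. Cd163, Lyve1, F13a1, Folr2, Timd4 and Il34 fell, Emr1 and Csf1r rose, and Csf1 and Mrc1 did not pass. Of all genes tested, 21.2% differed, 11.3% being higher and 9.92% lower in aged mice. The median log2 change of the 10 genes was -0.94, beside -0.0052 for all genes tested. The changes were unequal in size, from 5.06-fold lower for Cd163 to 4.34-fold higher for Emr1.

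**Figure D1:**
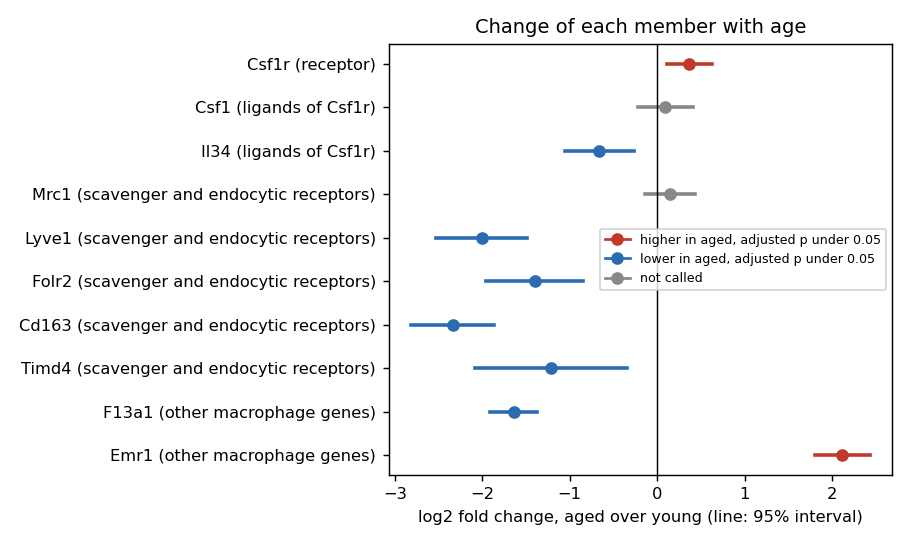
Log2 fold change, aged over young, of each of the 10 genes with its 95% interval as a line, grouped by role and coloured by direction where the adjusted p was under 0.05. The intervals of Csf1 and Mrc1 cross 0, those of the 6 lower genes lie left of it, and Emr1 lies at 2.12.

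Csf1r, the receptor on which the cells depend, is on the plus strand of chr18:61100598-61132149 (GRCm38). Its mean over all libraries was 4063 normalized counts. The worked-out means were 3546 in young and 4579 in aged mice, a 1.29-fold rise (95% interval 1.08 to 1.54, adjusted p = 0.0276). The rise was small and depended on scaling. The 4547 tested genes with a mean of at least 1000 had a median log2 change of 0.13, and relative to them Csf1r was at 0.24 (adjusted p = 0.172) and no longer differed. Its exons share 873 bases with those of Hmgxb3 on the opposite strand, whose log2 change was -0.08 (SE 0.13, adjusted p = 0.726).

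The 2 ligand genes parted. Il34 (minus strand, chr8:110741829-110805924) encodes the ligand known for maintaining microglia and Langerhans cells. Its worked-out mean was 239.5 in young and 151.4 in aged mice, so that Il34 fell by 36.8% (1.58-fold, 95% interval 1.20 to 2.08, adjusted p = 0.00834). Csf1 (minus strand, chr3:107741048-107760469), the more widely produced ligand, had means of 790.2 and 843.2. Its log2 change was 0.09 with a 95% interval of -0.22 to 0.41 (adjusted p = 0.738), and it was -0.03 relative to the abundant genes. A change of Csf1 within that interval could not be detected here. Per kilobase of the longest annotated transcript, the level of Csf1 was 1.42 times that of Il34 in young and 2.40 times in aged mice, and 1.06 and 1.79 times per kilobase of the median transcript length. These ratios hold only if the counts were not already corrected for length. The difference between the 2 changes could not be tested, because the covariance of the genes over the libraries is unknown here.

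The steepest falls were among the scavenger receptors. Cd163, which takes up haptoglobin-bound haemoglobin, lies on the plus strand of chr6:124304656-124330527. Its worked-out mean was 444.8 normalized counts in young and 87.99 in aged mice, a level 5.06-fold lower (95% interval 3.64 to 7.02, adjusted p = 4.7e-20). Among all genes tested, 0.107% changed as far down as Cd163 or farther, and it ranked number 20 from the lowest.

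Lyve1 (minus strand, chr7:110850607-110863239) had worked-out means of 159.2 and 39.53 normalized counts, 4.03-fold lower in aged mice (95% interval 2.81 to 5.78, adjusted p = 2.15e-12). Because lymphatic endothelium also makes Lyve1, its markers are given beside it. Of 9 listed lymphatic genes, 8 were tested, 0 rose and 2 fell, Mmrn1 with a log2 change of -1.27 (SE 0.28, adjusted p = 7.88e-05) and Reln with -0.81 (SE 0.24, adjusted p = 0.00594). The defining genes Prox1, at -0.03 (SE 0.29), and Flt4, at 0.15 (SE 0.17), did not pass, and Ccl21a was listed at 0. The summed level of the list was 14078 in young and 12445 in aged mice, and its median log2 change was 0.03. Most of the young sum came from Pdpn (4881), Reln (4816) and Itga9 (3344), so it says little of the other genes. What part lymphatic cells had in the fall of Lyve1 was not tested.

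F13a1 (minus strand, chr13:36867178-37050244) had the firmest fall of the 10 genes relative to its SE. Its worked-out mean was 934.7 in young and 299.8 in aged mice, 3.12-fold lower (95% interval 2.59 to 3.75, adjusted p = 3.25e-31). Platelets also contain F13a1 transcripts, and of 8 platelet and megakaryocyte genes, 6 were tested and 0 differed by the deposited DESeq2 test, with 0 of them at an unadjusted p under 0.05. Their summed level was 274.3 in young and 288.5 in aged mice, and their median log2 change was 0.27. Pf4, which platelets also make and which stands on the perivascular macrophage list here, fell from 251.3 to 116.5 normalized counts (log2 change -1.11, SE 0.23, adjusted p = 1.96e-05). What part platelets had in the fall of F13a1 was not tested.

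Folr2, the folate receptor of macrophages, and Timd4, a phosphatidylserine receptor for dying cells, also fell. Folr2 (minus strand, chr7:101839988-101857194) had worked-out means of 106.9 and 40.42, 2.65-fold lower in aged mice (95% interval 1.79 to 3.90, adjusted p = 1.83e-05). Its value is uncertain, because 975 of its exon bases lie opposite Gm10602 (mean 38.72, log2 change -0.02, SE 0.35), and only a fraction of 0.431 of its 31-base words are found in no other gene. Timd4 (plus strand, chr11:46810800-46844332) had a mean of 11.05, close to the lowest mean tested, 7.07. It was 2.32-fold lower in aged mice with a wide 95% interval of 1.27 to 4.24 (adjusted p = 0.0328).

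Mrc1, the mannose receptor CD206, did not follow the other endocytic receptors. It lies on the plus strand of chr2:14229392-14332057, and its worked-out means were 2757 in young and 3053 in aged mice. The log2 change was 0.15 with a 95% interval of -0.13 to 0.43 (adjusted p = 0.512), and 0.02 relative to the abundant genes. The interval does not reach the falls of Cd163, Lyve1, Folr2 or F13a1. Of the 5 endocytic and scavenger receptors, 4 fell and Mrc1 did not pass.

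Sequences just upstream of the annotated starts are shown for F13a1 and Cd163, which fell, and for Mrc1, which did not pass, since all 3 are used as markers of resident macrophages and their values differed. The bases are those of RefSeq (GRCm38.p6), read on the strand of the gene and ending at its outermost annotated start. Capitals mark GAGGAA, the core bound by the myeloid factor PU.1, on either strand (TTCCTC on the other), and TGCTGA, a core bound by Maf factors, on either strand (TCAGCA on the other). They come from chr13:37050245-37050494 (minus), chr6:124304401-124304635 (plus) and chr2:14229164-14229391 (plus).
F13a1: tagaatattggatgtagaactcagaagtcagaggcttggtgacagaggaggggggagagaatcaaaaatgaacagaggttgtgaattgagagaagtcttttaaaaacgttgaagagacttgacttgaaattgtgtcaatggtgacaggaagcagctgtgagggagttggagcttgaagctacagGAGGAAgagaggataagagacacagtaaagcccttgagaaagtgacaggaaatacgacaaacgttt
Cd163: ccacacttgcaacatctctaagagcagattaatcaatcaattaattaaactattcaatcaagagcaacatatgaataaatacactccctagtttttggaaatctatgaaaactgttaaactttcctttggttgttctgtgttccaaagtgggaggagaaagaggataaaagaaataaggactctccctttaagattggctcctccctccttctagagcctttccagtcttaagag
Mrc1: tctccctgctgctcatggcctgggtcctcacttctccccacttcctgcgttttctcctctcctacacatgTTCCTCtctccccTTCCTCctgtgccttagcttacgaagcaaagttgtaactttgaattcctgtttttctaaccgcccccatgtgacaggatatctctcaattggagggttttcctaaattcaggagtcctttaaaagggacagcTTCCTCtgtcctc
Windows of the same length, 300 bases around a start, were held for 6 of the 10 genes. GAGGAA was found in those of 2 of them, Mrc1 with 3 matches in its window and F13a1 with 1 and 2 in its 2 windows, not all of which lie in the stretch shown, and TGCTGA in those of 2, Folr2 and Timd4. Of all 32851 mouse windows, 28.3% hold GAGGAA and 19.5% hold TGCTGA. These shares are per window, while the counts before them are per gene, and F13a1 and Folr2 each have 2 windows. A match describes letters in the window and not a binding site.

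Emr1 moved opposite to the scavenger receptors. It encodes an adhesion G protein-coupled receptor used as a general mouse macrophage marker (plus strand, chr17:57358691-57483527). Its worked-out mean was 1168 normalized counts in young and 5073 in aged mice, 4.34-fold higher (95% interval 3.50 to 5.39, adjusted p = 5.89e-38). Of all genes tested, 0.816% rose as far or farther.

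**Figure D2:**
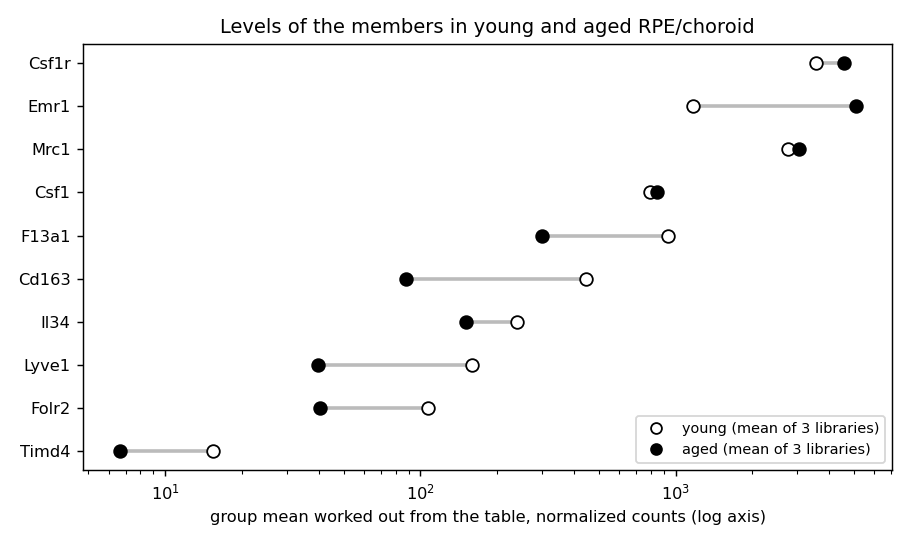
Worked-out mean of each of the 10 genes in young (open circles) and aged (filled circles) RPE/choroid, in normalized counts on a log axis, each group being 3 libraries with no spread known. Emr1 moved from 1168 to 5073, Cd163 from 444.8 to 87.99, and Mrc1, at 2757 and 3053, did not pass the test.

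The order of the levels changed with age, and part of it rested on the transcript length used. Per kilobase of longest transcript, Csf1r led in young mice with 754.2 normalized counts, followed by Mrc1 at 513.0, Emr1 at 360.8, F13a1 at 236.5 and Csf1 at 189.2. Il34 (133.3), Cd163 (100.1), Folr2 (88.79), Lyve1 (55.05) and Timd4 (7.11) came below them. In aged mice Emr1 led with 1567, ahead of Csf1r at 974.1 and Mrc1 at 568.1, and F13a1, at 75.86, lay below Csf1 (201.9) and Il34 (84.28). Folr2 (33.57), Cd163 (19.8), Lyve1 (13.66) and Timd4 (3.06) were lowest. With the median transcript length, Csf1r again led in young mice (2524, with Emr1 at 1274) and Emr1 in aged mice (5532, with Csf1r at 3259). With that length, however, Emr1 lay above Mrc1 (740.9) in young mice already, and F13a1 (315.3) below Csf1 (376.8) and Il34 (354.8), so the moves of Emr1 past Mrc1 and of F13a1 below the ligands were not seen. Whether neighbours in either order differ beyond their spread cannot be told without values per library.

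Ratios between genes were also taken per kilobase of longest transcript, with the same limit. The level of Emr1 was 0.703 times that of Mrc1 in young and 2.76 times in aged mice, and its ratio to F13a1 went from 1.53 to 20.7. The ratio of Mrc1 to Cd163 went from 5.12 to 28.7, and that of Mrc1 to Lyve1 from 9.32 to 41.6. The ratio of Csf1r to Csf1, by contrast, was 3.99 in young and 4.82 in aged mice. With the median length, Emr1 was 1.72 times Mrc1 in young and 6.74 times in aged mice, so that the young ratio turned, and its ratio to F13a1 went from 4.04 to 54.7. The ratio of Csf1r to Csf1 was then 6.70 and 8.11. The choice of length moves both ages of a ratio by the same factor and leaves the change between them as it is. These ratios are descriptions with no test.

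The falls stood beside a rise of general macrophage transcripts. Of 15 pan-macrophage markers, 14 were tested and all 14 rose, with a median log2 change of 1.93 and a range of 0.66 to 4.18. Mpeg1, which encodes a pore-forming protein of phagosomes, was at 4.18 (SE 0.15), Cd68 at 3.37 (SE 0.14) and the oxidase subunit gene Cybb at 3.21 (SE 0.15). The summed level of the 14 tested markers was 10229 in young and 55068 in aged mice. Lyz2, the marker not tested, had a log2 change of 4.09 and no p in the table, which is how DESeq2 marks a gene with an outlying library, and with it the sums were 14503 and 127935. In bulk tissue, fewer cells of a type and less RNA per cell cannot be told apart.

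Set against the pan-macrophage median, Emr1 lay 0.18 above on the log2 scale and the other 9 genes lay below. Csf1r lay at -1.57 relative to that median, Mrc1 at -1.79, Csf1 at -1.84 and Il34 at -2.60. The largest gaps were those of Cd163 at -4.27, Lyve1 at -3.94, F13a1 at -3.57, Folr2 at -3.34 and Timd4 at -3.15. The log2 changes of these 9 genes were all below that of every pan-macrophage marker tested. Csf1 and Il34, among the 9, are also produced by other cells, so their gaps need not describe macrophages. The gaps are differences of fold changes with no test.

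**Figure D3:**
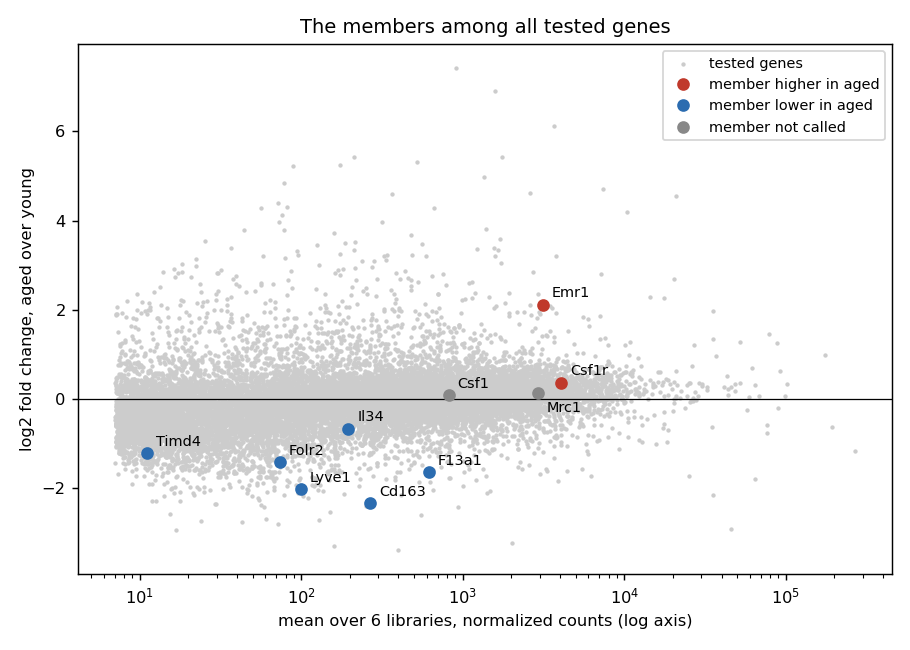
Log2 fold change, aged over young, against the mean over 6 libraries in normalized counts (log axis) for all 18636 tested genes in grey and the 10 genes in colour. Cd163 and Lyve1 lie at the lower edge of the cloud and Emr1, at 2.12, lies above most genes of like mean, while Csf1, Mrc1 and Csf1r lie within it.

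Most genes that act below Csf1r or set up macrophage identity rose. Of 16 listed, all 16 were tested, 13 rose and 0 fell, against 11.3% and 9.92% of all genes, with a median log2 change of 1.06. The signalling adaptor Tyrobp (DAP12) was at 3.05 (SE 0.17), the transcription factor Cebpa at 1.94 (SE 0.18) and Irf8, a factor of monocyte and macrophage development, at 1.86 (SE 0.15). Spi1, which encodes PU.1 and is listed under its older symbol Sfpi1, was at 1.58. The phosphatase genes Inpp5d and Ptpn6 were at 1.49 and 1.44, Runx1 and Cebpb both at 1.06, and Grb2, Pik3cd, Cbl and Mapk3 between 0.39 and 0.87. Of the 3 that did not pass, Maf was at 0.08 (SE 0.17) and Sos1 at -0.06 (SE 0.14).

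Receptors for other haematopoietic growth factors rose more often than not. All 10 listed receptor genes were tested, and 7 rose and 0 fell. The highest were Csf2rb2, which encodes the beta chain specific to the IL-3 receptor in mice, with a log2 change of 2.89 (SE 0.27), and Csf2rb, which encodes the beta chain shared by the GM-CSF, IL-3 and IL-5 receptors, with 2.35 (SE 0.20). These genes are close paralogs, so how reads were split between them is uncertain. They were followed by Csf3r, the G-CSF receptor, with 1.73 (SE 0.24). Flt3 (1.06), Csf2ra (1.03), Il3ra (1.01) and Il4ra (0.85) also rose, and Kit, the stem cell factor receptor, was at -0.33 (SE 0.17, adjusted p = 0.143). Of 9 factor genes, 3 were tested and 1 rose, Tgfb1 with 0.95. Kitl was at 0.25 (SE 0.13, adjusted p = 0.160) and Flt3l at -0.58 (SE 0.30, adjusted p = 0.165). Csf2, Csf3, Il3, Il4, Il5 and Il13 had means of 0.352 to 4.95 and were not tested, so a change in them was not detectable at this depth.

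**Figure D4:**
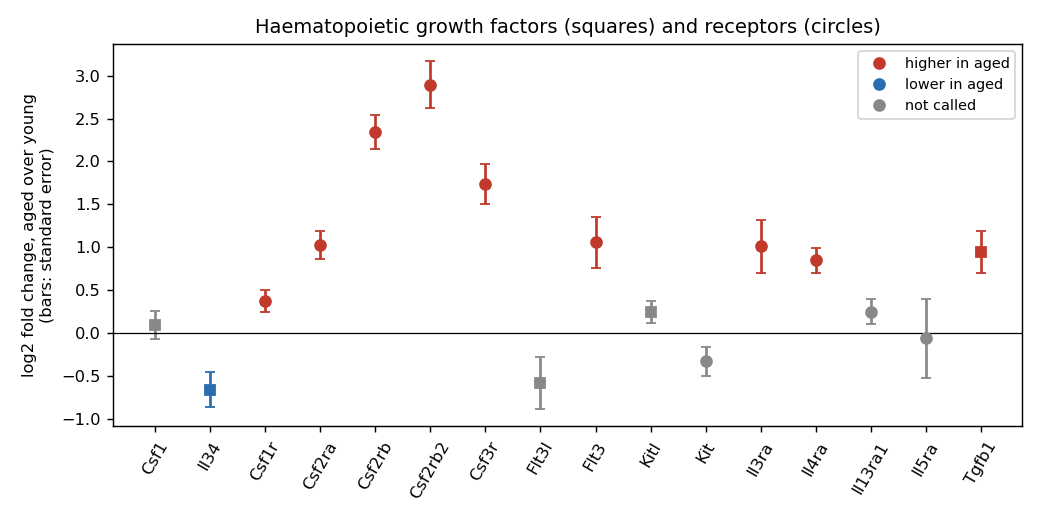
Log2 fold change, aged over young, with its SE for Csf1r, its 2 ligands and the other growth factors (squares) and receptors (circles) tested, coloured by direction where the adjusted p was under 0.05. Csf2rb2, at 2.89, and Csf2rb, at 2.35, are the highest, and Il34, at -0.66, is the only one that fell.

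Further genes reported in resident perivascular macrophages went both ways. Of 24, 19 were tested, 7 rose, 4 fell and 8 did not pass, with a median log2 change of -0.10. The genes that rose were led by Wfdc17 (listed as Gm11428) at 3.67 (SE 0.22) and Ms4a7 at 3.20 (SE 0.16). The lectin gene Mgl2 fell most, from 231.8 to 78.37 normalized counts (-1.56, SE 0.23, adjusted p = 4.09e-10), and the chemokine genes Ccl24 and Pf4 fell by 1.35 and 1.11 on the log2 scale. Ccl24 had a low mean, 17.26. Igf1 fell by 0.47 on the same scale. Slc40a1, which encodes the iron exporter ferroportin, rose by 0.84 on that scale. Fgl2 (1.11), Sepp1 (0.75), Gas6 (0.55) and Stab1 (0.52) also rose. Cd209b, Cd209d, Cd209g, Vsig4 and Marco, markers of macrophages in other organs, had means of 1.69 to 6.57 and were not tested.

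Relatives of the 10 genes by sequence family were also counted. Of 15 listed, 11 were tested, 4 rose, 0 fell and 7 did not pass. Havcr2 (TIM-3), a relative of Timd4, rose by 3.21 (SE 0.21) on the log2 scale. Cd163l1, a relative of Cd163, rose by 2.03 (SE 0.45) on that scale, at a low mean of 14.83. Emr4, a relative of Emr1, rose by 0.70 (SE 0.24), and Cd44, which like Lyve1 binds hyaluronan, by 0.52 (SE 0.16). Mrc2 was at 0.23 (SE 0.14, adjusted p = 0.216) and Folr1 at -0.80 (SE 0.38, adjusted p = 0.118).

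**Figure D5:**
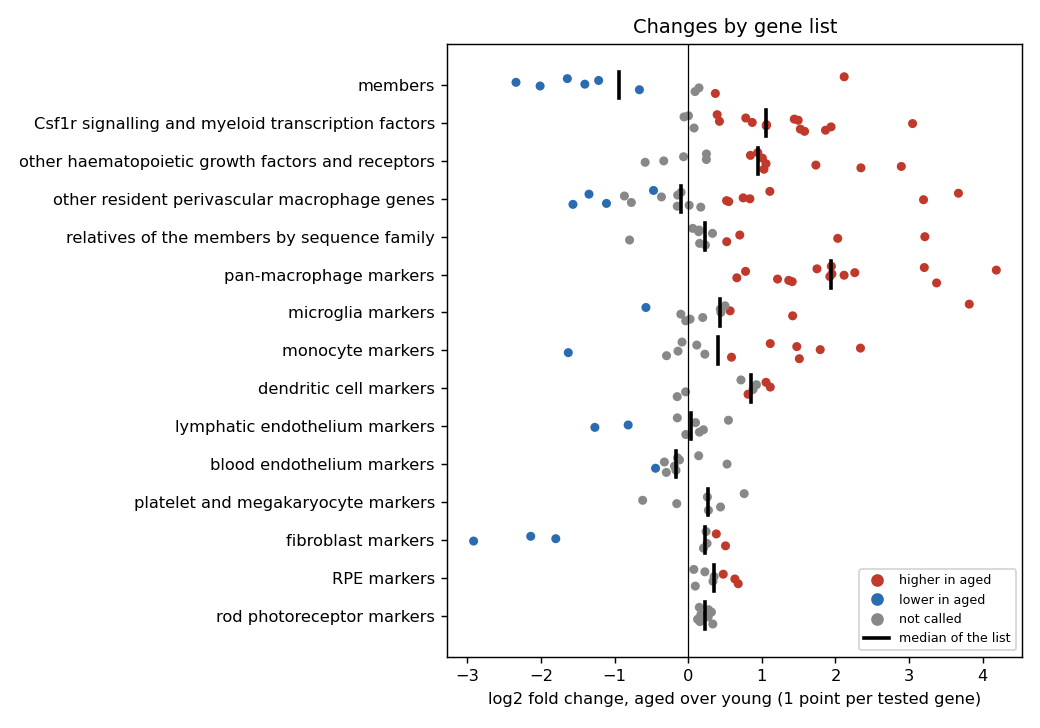
Log2 fold change, aged over young, of every tested gene of each list (points, coloured by direction where the adjusted p was under 0.05) with the list's median as a bar. The pan-macrophage points all lie to the right of 0 with a median of 1.93, while 6 of the 10 described genes lie to its left and are coloured as lower.

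Other rules for a call gave other backgrounds. With an adjusted p under 0.01, 6 of the 10 genes and 13.5% of all tested differed. With an absolute log2 change of at least 1 in addition to an adjusted p under 0.05, 6 of the 10 and 8.27% of all differed, 5 of the 10 being lower (4.62% of all) and Emr1 higher (3.65% of all). Without a filter on low means, 8 of the 10 and 13.5% of 26521 genes differed. A mean of at least 100 leaves out Lyve1, Folr2 and Timd4. Of the described genes that remained, 5 differed, beside 22.9% of all genes kept. Relative to the abundant genes, 7 of the 10 and 23.1% of all differed, the 6 lower genes standing beside 15.6% of all and Emr1 beside 7.46%.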

How the data were processed

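Ribosomal RNA-depleted total RNA of RPE/choroid was sequenced from 3 young and 3 aged mice. The authors used BBDuk for trimming, aligned with STAR to mouse GRCm38 transcripts, estimated abundances with Sailfish and compared the groups with DESeq2. The use of strand in counting is not given in the sources used here. The deposited file is the table of that comparison, with 0 columns of values that name a sample, so the depth per library is unknown here.

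The deposited baseMean is a normalized signal, the mean over the 6 libraries. Fold changes and their SE were deposited as log2 values, and the deposited Wald score is their quotient. Each p-value and its Benjamini-Hochberg adjusted p-value were deposited by the authors from DESeq2. No test could be refitted, and the deposited values are described, except under the alternatives. For centring, the median log2 change of abundant genes was subtracted, a Wald p was recomputed for each gene from the deposited SE, and Benjamini-Hochberg adjustment was repeated over all tested genes. For the other filters on low means, the deposited p-values were adjusted again over the genes kept. Because the table does not state its sign, it was read as young over aged from the study's account of which group held more of the higher genes, and then reversed. Recomputing the Wald p and the adjusted p from the deposited columns gave them to within 0.449% and 0.572%. For 7885 genes, with means up to 7.07, the table has a p and no adjusted p. SEs were lowest where means were lowest (median 0.239 for means under 2, 0.433 for tested genes under 30), as shrinkage of fold changes would give, and if so the changes of low genes are understated. The p-values measure the spread between 3 libraries a group, labelled as separate samples.

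The 10 genes and the gene lists were chosen with earlier results of these data known. Besides all 10 genes, those named are the 3 genes of each list that differed by most among means of at least 100, every gene of the signalling and growth factor lists that differed, and markers at 0 or not tested. Others were chosen after their values were seen, and a few genes that the rule names are not reported here. Intervals of 95% were computed from the SE. Gene positions, transcript lengths, shared 31-base words and exon overlaps come from GENCODE M21 (GRCm38), and upstream sequences from RefSeq. Alternatives were a stricter p, a minimum fold change, other filters on low means, centring on abundant genes or pan-macrophage markers, and the median transcript length. Scripts ran in Python 3.11.15 with pandas 2.3.3, numpy 2.4.6 and scipy 1.17.1 and were tested on simulated data.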

Additional observations from a re-analysis of the deposited data

How the results depend on the processing

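Of the 10 genes, 8 differed as deposited, and 6 to 8 did so under the other rules except among genes with a mean of at least 100, where 5 did, because Lyve1, Folr2 and Timd4 have lower means and left the test, which took the lower genes from 6 to 3. The higher genes went from 2 to 1 with an adjusted p under 0.01, with an absolute log2 change of at least 1, and relative to abundant genes, Csf1r being lost each time. Timd4 was lost with an adjusted p under 0.01 and Il34 with the minimum fold change. Of all genes, 3949 differed as deposited, 2520 with an adjusted p under 0.01 and 1542 with the minimum fold change. Without a filter on low means, the adjusted p was 0.0388 for Csf1r, 0.0461 for Timd4 and 0.0118 for Il34. Csf1 turned in sign to -0.0316 relative to abundant genes, and relative to the pan-macrophage median Csf1r (-1.57), Csf1 (-1.84) and Mrc1 (-1.79) turned, as subtracting 1.93 gives. Levels per kilobase with the median transcript length were over 1.5 times higher for Csf1r, Csf1, Il34, Lyve1, Folr2 and Emr1, which turned the young ratio of Emr1 to Mrc1 from 0.703 to 1.72. Leaving out each library was not run. No paired analysis was possible because no library has values of its own in the deposited file. Depth limits Timd4 most, with a mean of 11.05 and an SE of 0.44.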

Other observations

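Markers of other myeloid cells did not move as 1 group. Of 12 microglia markers, 11 were tested, 3 rose and 1 fell. Trem2, a lipid receptor, rose by 3.82 (SE 0.19) on the log2 scale, and Olfml3 fell by 0.57 (SE 0.17) on that scale. The markers P2ry12 (-0.03, SE 0.22) and Tmem119 (0.03, SE 0.16) did not pass. Of 12 monocyte markers, all 12 were tested, 6 rose and 1 fell. The calprotectin gene S100a9 was at 1.47 (SE 0.31), Ccr2, the chemokine receptor of inflammatory monocytes, at 0.59 (SE 0.16), and Vcan at -1.63 (SE 0.39). Of 9 dendritic cell markers, 8 were tested and 3 rose, Itgae, Flt3 and Xcr1, while Zbtb46 (-0.15, SE 0.14) and Clec9a (-0.04, SE 0.25) did not pass.

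Stromal and vascular markers differed in turn. Of 8 fibroblast markers, the collagen genes Col1a1 (-2.91, SE 0.17), Col3a1 (-2.14, SE 0.13) and Col1a2 (-1.80, SE 0.15) fell, Dcn and Fbln1 rose, and Pdgfra (0.21, SE 0.14) did not pass. Of 9 blood endothelial markers tested, 1 fell, the angiopoietin receptor gene Tek (-0.44, SE 0.15), and the summed level of the 10 listed was 24707 in young and 23601 in aged mice. Of 8 RPE markers tested, 3 rose, among them Rgr (0.63, SE 0.18) and Stra6 (0.48, SE 0.17). None of 8 rod markers differed by the deposited DESeq2 test, with 0 at an unadjusted p under 0.05 and a median log2 change of 0.22.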
